A study of Mus musculus with 4 samples.

Results

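The heavy chain of mouse immunoglobulin is assembled with 1 of 4 joining (J) segments, and the use of these segments, IGHJ1 to IGHJ4, was described from assembled antigen-receptor sequences (contigs) of single bone marrow cells. Members were all contigs assigned to the heavy-chain locus (IGH) in 2 libraries, grouped by the J gene that the deposited table names. There were 13203 such contigs, of 22449 contigs of any chain in the series: 3393 in the library labelled Mll3/4 deleted Kit+ and 9810 in the library labelled control B220lo. Every one of them had a J segment and was flagged as full length and productive.

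The series holds 4 libraries of 10x Genomics 5′ single-cell RNA, 1 for each group, all from CD45.2+ mouse bone marrow taken 10 weeks after transplantation. The other 2 are control Kit+ cells and Mll3/4SI Kit+ cells, an abbreviation that the labels do not expand. Mll3 and Mll4 are the H3K4 methyltransferases encoded by Kmt2c and Kmt2d. CD45.2 is an allele of the leukocyte antigen CD45, Kit is the stem cell factor receptor of early progenitors, and B220 is a form of CD45 carried by B cells. The labels do not give the number of mice behind a library, the recipients, or the driver of the deletion. With 1 library per group no test between groups was possible. Intervals are exact 95% Clopper-Pearson intervals for shares and exact Poisson intervals for sums of molecules, and they cover counting error only. Genotype, sort and sequencing depth differ together between the deleted Kit+ and the control B220lo library, as does sex by transcript (153 against 0.323 CPM, counts scaled to a common library total, for 4 Y-linked genes), so their parts in any difference cannot be told apart.

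Kmt2c was at 51.6 CPM in the deleted library and 58.5 CPM in the control Kit+ library, and Kmt2d at 20.0 against 24.1 CPM. Molecules counted at the 5′ end of a transcript do not check a deletion further along the gene. Cells with a heavy chain had 14434 CPM of 12 B-lineage markers in the deleted library and 14566 CPM in the B220lo library. Single markers of that list were further apart, with Ms4a1, which codes for CD20 of later B cells, at 1.79 against 447 CPM. The cells with a heavy chain in the deleted library also had Kit, at 378 CPM against 6.07 CPM, and Igll1, a part of the surrogate light chain, at 2555 against 366 CPM. Markers of other lineages were summed in the same cells: first in the deleted and then in the B220lo library, those of granulocytes and monocytes came to 1443 and 2044 CPM, of plasma cells to 110 and 2270 CPM, of erythroid cells to 23.4 and 470 CPM, of plasmacytoid dendritic cells to 10.4 and 446 CPM, and of T and NK cells to 24.8 and 58.7 CPM. Jchain, Siglech and 2 of the 5 T and NK markers were at 0 in the deleted library. The part of these transcripts in the results below was not tested. The median heavy-chain contig rested on 21 molecules (UMIs) in the deleted and 14 in the B220lo library.

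Heavy-chain genes are built in order: a diversity (D) segment is first joined to a J segment, and a variable (V) segment is then joined to the DJ unit. The RAG1 and RAG2 proteins cut the DNA, ends are trimmed, and terminal transferase (Dntt) can add bases that are in no segment. The junction codes for the third complementarity-determining region, CDR3, the most variable stretch of the chain, and the J segment supplies its end and the framework 4 stretch after it. Such rearrangement is usual at the pro-B stage in the marrow, before a light chain is made.

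The germline J segments lie on the reverse strand of chromosome 12 in mm10. They are given here because every comparison below is among them, 5′ to 3′ in the reading direction, with the part that can fall in the CDR3 in capitals and framework 4 in lower case (GENCODE M21).
IGHJ1, chr12:113429781-113429833: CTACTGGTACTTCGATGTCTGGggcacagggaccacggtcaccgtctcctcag
IGHJ2, chr12:113429468-113429515: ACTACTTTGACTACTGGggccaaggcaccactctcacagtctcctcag
IGHJ3, chr12:113429085-113429132: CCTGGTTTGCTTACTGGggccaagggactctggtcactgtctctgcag
IGHJ4, chr12:113428514-113428567: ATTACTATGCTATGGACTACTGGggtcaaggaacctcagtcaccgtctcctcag
The CDR3 part is 22 bases in IGHJ1, 17 in IGHJ2 and IGHJ3, and 23 in IGHJ4. All 4 end in TGG, the tryptophan codon that closes the CDR3.

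IGHJ2 was the most used segment in both libraries, and its share depended on what was counted. Counted by contig, IGHJ2 made up 2730 of 3393 heavy chains in the deleted library, 80.5% (79.1 to 81.8%), and 3792 of 9810 in the B220lo library, 38.7% (37.7 to 39.6%). IGHJ3 made up 364 contigs (10.7%) in the deleted library and 2402 (24.5%) in the B220lo library. IGHJ4 made up 234 contigs (6.90%) and 1528 (15.6%). IGHJ1 was the least used in the deleted library, with 65 contigs (1.92%, 1.48 to 2.44%), while the B220lo library had 2088 (21.3%). Cells that share a rearrangement are counted repeatedly here, so contigs of one clone are not independent.

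When each distinct CDR3 nucleotide sequence with its J segment was counted once, 631 remained in the deleted and 9367 in the B220lo library. In the deleted library IGHJ2 then had 307 CDR3s (48.7%, 44.7 to 52.6%), IGHJ3 and IGHJ4 had 138 each (21.9%, 18.7 to 25.3%), and IGHJ1 had 48 (7.61%, 5.66 to 9.96%). The B220lo shares lay within the intervals of those by contig: 38.6% IGHJ2, 24.4% IGHJ3, 21.3% IGHJ1 and 15.8% IGHJ4 (15.04 to 16.5%). The order of the segments in the deleted library was therefore IGHJ2, then IGHJ3 and IGHJ4 level, then IGHJ1. In the B220lo library it was IGHJ2, IGHJ3, IGHJ1, IGHJ4, with no overlap of neighbouring intervals.

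Many distinct CDR3s of the deleted library shared their 3′ end, and another way of counting takes account of that. A D-J end was defined as the bases at the end of the CDR3 that match the germline J, read from the 3′ end to the first mismatch, and the 9 bases before them. The definition was chosen after the sequences were seen. Counting each of the 411 distinct D-J ends of the deleted library once gave 149 with IGHJ2 (36.3%, 31.6 to 41.1%), 115 with IGHJ4 (28.0%, 23.7 to 32.6%), 103 with IGHJ3 (25.1%, 20.9 to 29.5%) and 44 with IGHJ1 (10.7%, 7.89 to 14.1%). The 7391 distinct D-J ends of the B220lo library gave 39.8% IGHJ2 (38.7 to 41.0%), 24.0% IGHJ3, 19.8% IGHJ1 (18.9 to 20.7%) and 16.4% IGHJ4 (15.5 to 17.2%). On this count the IGHJ2 intervals of the libraries overlapped, as did those of IGHJ3. The IGHJ1 share stayed lower in the deleted library, with intervals apart. The IGHJ4 share was higher there by D-J end and by distinct CDR3, with intervals apart, but lower by contig (6.90% against 15.6%). With 12 bases before the J match in place of 9, IGHJ2 was at 42.8% of the ends in the deleted library, and with 6 bases at 34.6%.

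**Figure D1:**
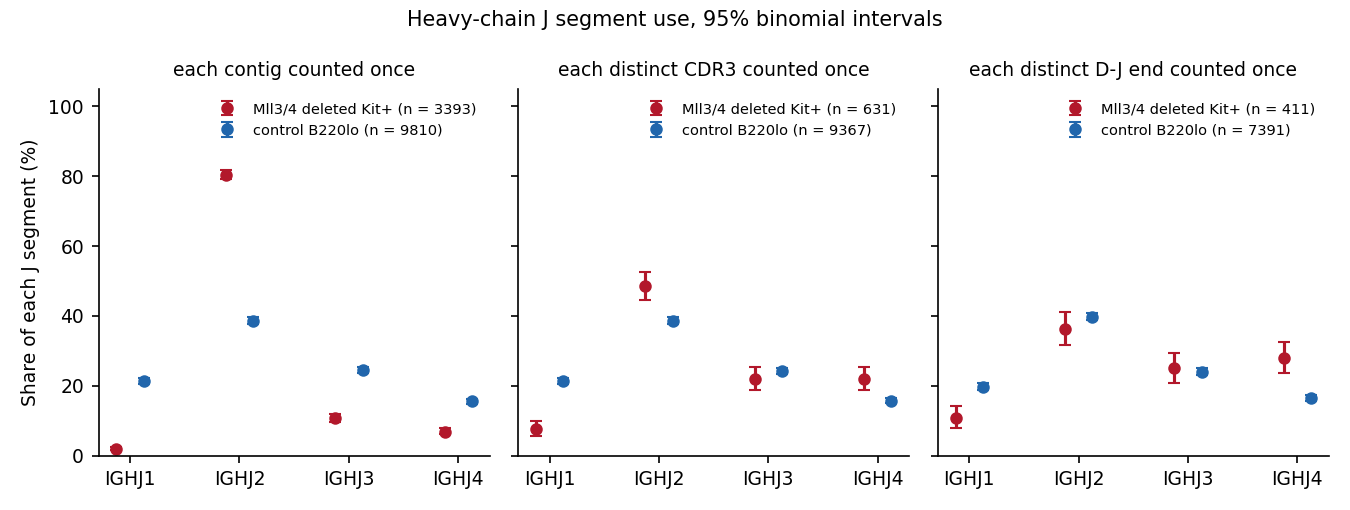
Share of each J segment (%, vertical axis) in the deleted Kit+ and control B220lo libraries when each contig, each distinct CDR3 or each distinct D-J end is counted once; points are shares and bars are exact 95% binomial intervals. IGHJ2 is at 80.5%, 48.7% and 36.3% across the panels in the deleted library and stays between 38.6% and 39.8% in the B220lo library.

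The remaining libraries held few heavy chains, each with a CDR3 of its own. The control Kit+ library had 34 contigs, 8 with IGHJ1, 10 with IGHJ2, 7 with IGHJ3 and 9 with IGHJ4. The Mll3/4SI Kit+ library had 25 contigs, 3 with IGHJ1, 5 with IGHJ2, 13 with IGHJ3 and 4 with IGHJ4. Their IGHJ2 shares were 29.4% (15.1 to 47.5%) and 20.0% (6.83 to 40.7%). With so few heavy chains neither could be set apart from the 38.7% of the B220lo library. Both lay below the 80.5% of the deleted library by contig, where clones count repeatedly. By distinct CDR3 the deleted library had 48.7% (44.7 to 52.6%), which overlaps the control Kit+ interval and lies above the Mll3/4SI interval. Both intervals hold its 36.3% by D-J end. A light chain was also found in 33 of 34 control Kit+ and 23 of 24 Mll3/4SI barcodes with a heavy chain, against 21 of 3392 in the deleted library.

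The most frequent D-J end of the deleted library used IGHJ2 and was 23 bases long. It was found in 1641 contigs, each in a cell of its own, which were 48.4% of all heavy chains and 60.1% of the IGHJ2 heavy chains of that library. These values depend on the definition: with 12 bases before the J match the largest end held 829 contigs, 24.4% of all and 30.4% of the IGHJ2 heavy chains, and no end had more than 14 V genes. The 1641 contigs held 46 distinct CDR3s and 19 V genes of 6 families. The most frequent CDR3 with this end is shown for each of 5 V genes, since they show the same end beside different V genes. The shared end is in capitals.
IGHV5-2, 448 cells: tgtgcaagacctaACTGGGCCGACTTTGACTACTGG
IGHV5-15, 170 cells: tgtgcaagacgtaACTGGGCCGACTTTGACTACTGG
IGHV2-6-8, 106 cells: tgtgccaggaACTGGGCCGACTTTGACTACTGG
IGHV11-2, 102 cells: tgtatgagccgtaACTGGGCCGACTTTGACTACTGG
IGHV7-1, 99 cells: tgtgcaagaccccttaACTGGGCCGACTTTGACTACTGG
Within IGHV5-2 the second most frequent CDR3 also had this end and was found in 370 cells: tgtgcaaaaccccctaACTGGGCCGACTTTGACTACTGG
All of these CDR3s but that of IGHV2-6-8 have the bases ta directly before the shared end. Further upstream the bases differed between the V genes and also within IGHV5-2.

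The last 14 bases of the shared end match germline IGHJ2, whose first 3 bases are absent. Before them stand 3 bases, CCG, and before those, in the largest clone, 9 bases identical to the D segment Ighd4-1, whose germline sequence at chr12:113430528-113430538 on the reverse strand is ctaactgggac. No other D segment matched more than 5 consecutive bases there. Ighd4-1 is the annotated D segment closest to the J cluster, 694 bases from Ighj1 and 1012 from Ighj2, while the next, Ighd3-2, is 18380 bases from Ighj1. The deposited table assigned IGHD4-1 to 59.0% of the contigs with the shared end and no D gene to the other 41.0%.

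The exact shared end was absent from the other 3 libraries. A count of 0 among 9810 contigs allows a share of up to 0.0306% in the B220lo library, taking 3 contigs of the total as the limit that a count of 0 allows. However, 1 of the 10 IGHJ2 contigs of the control Kit+ library had a near copy. It has the same 14-base J match and differs only in the base directly before that match, A in place of G. CDR3s with this end were 33 to 51 bases long, with a median of 39 bases. Of the 46 CDR3s, 21 were each found in a single cell. The contigs rested on a median of 20 UMIs, against 23 for the other heavy chains of the library. Cells with the shared end and other cells with a heavy chain in the deleted library had Rag1 at 214 and 202 CPM, Kit at 389 and 369 CPM, Igll1 at 2465 and 2632 CPM, and Dntt at 1437 and 1202 CPM.

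IGHV5-2, at chr12:113578504-113578990 and 149 kb from Ighj2, was the V gene of 908 of the 1641 contigs, or 62.8% of the 1447 IGHV5-2 heavy chains of the library. IGHV11-2 came next with 172 contigs, which were 91.5% of its 188 heavy chains. IGHV5-15 had 170 of 360, IGHV7-1 had 141 of 219 and IGHV2-6-8 had 107 of 148. The shared end was thus on 47.2% to 91.5% of the heavy chains of each of these 5 V genes. It was also found with V genes far from the J cluster, IGHV12-3 at 937 kb (5 contigs) and IGHV1-18 at 1253 kb (4 contigs).

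**Figure D2:**
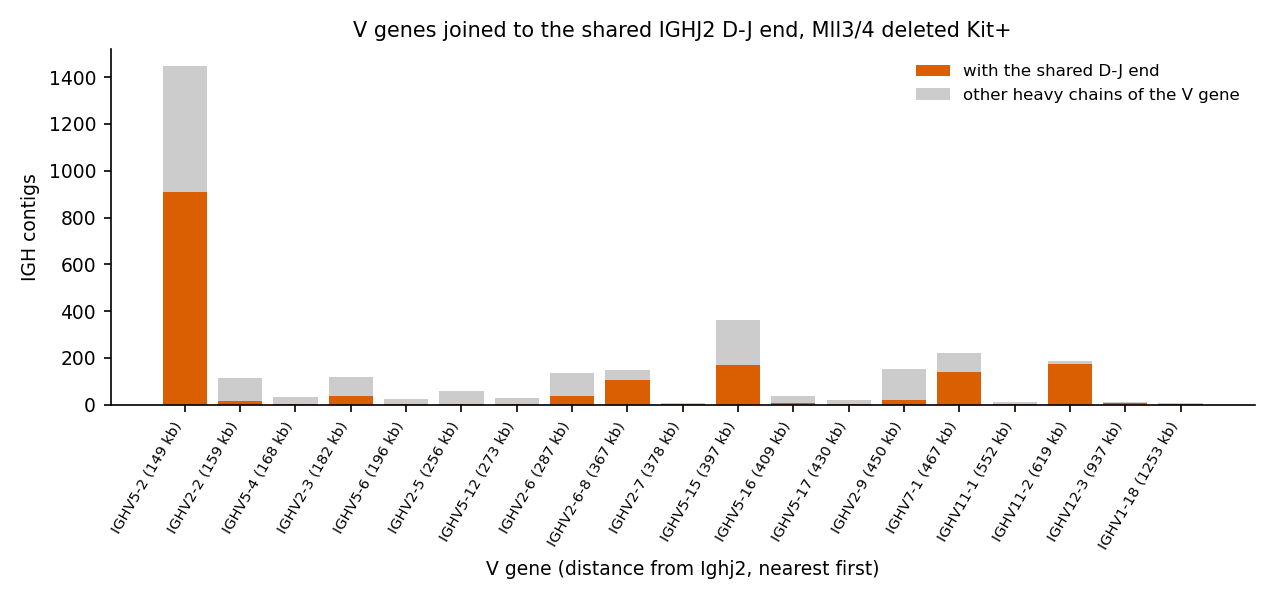
IGH contigs of the deleted Kit+ library (vertical axis) for the 19 V genes found with the shared IGHJ2 D-J end, ordered by distance from Ighj2 in kilobases; the lower part of each bar counts contigs with the shared end and the upper part the other heavy chains of that V gene. IGHV5-2 carries 908 of the 1641 contigs, and V genes from 149 to 1253 kb away are present.

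Another 3 IGHJ2 D-J ends of the deleted library, ends 2, 3 and 4 by number of contigs, were found with 13 or 14 V genes each. Their most frequent CDR3s are shown with the bases that match germline IGHJ2 in capitals, since they show how much of the segment is matched.
End 2, 365 contigs: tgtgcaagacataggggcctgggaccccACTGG
End 3, 152 contigs: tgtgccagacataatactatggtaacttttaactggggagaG
End 4, 124 contigs: tgtgccggaactgccccCTTTGACTACTGG
The IGHJ2 match is 5 bases in end 2 and 13 in end 4. The CDR3 of end 3 does not close with TGG and matches the last base of the CDR3 part alone. Its J segment is the one assigned in the deposited table, and framework 4, which follows the CDR3, was identical to germline IGHJ2 in all 2730 IGHJ2 contigs of the library. The longest D match before the J bases was again to Ighd4-1 in end 2 (7 bases, with 3 bases between it and the J match). In the CDR3 of end 3 the longest was to Ighd2-8 (13 bases, positions 15 to 27 of the CDR3), and an 8-base match to Ighd4-1 lay between it and the J match, at positions 30 to 37. The deposited table assigned IGHD2-8 to 36 of the 152 contigs of end 3 and no D gene to the other 116. In the CDR3 of end 4 the longest D matches were 5 bases. The match to Ighd4-1, at positions 9 to 13 of the CDR3, lies within the end. Those to Ighd5-7 and Ighd5-8, at positions 2 to 6, lie before the end. A match this short does not name a D segment. IGHD4-1 was assigned to 6 of the 124 contigs of end 4 and IGHD5-5 to 1, and no D gene to the others. Together the 4 ends held 2282 contigs, 83.6% of the IGHJ2 heavy chains and 67.3% of all heavy chains of the deleted library. Ends 2 and 4 were absent from the other 3 libraries, and end 3 was on 1 contig there. The ends were joined to 28 V genes in all, and 3 V genes were found with all 4. IGHV5-2 led the most frequent end and end 2, with 908 and 252 contigs, IGHV2-6 led end 3 with 55, and IGHV2-2 led end 4 with 75.

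Without these 4 ends the deleted library had 1111 contigs and 513 distinct CDR3s. Of those CDR3s, IGHJ2 made up 36.8% (32.7 to 41.2%), IGHJ3 and IGHJ4 26.9% each (23.1 to 31.0%), and IGHJ1 9.36% (6.98 to 12.2%). IGHJ2 ends with 38 and 6 contigs, which differ from ends 4 and 2 in the first base alone, were kept in these shares. Leaving out the first end alone gave 62.2% IGHJ2 by contig and 44.6% by distinct CDR3.

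D-J ends found with many V genes were also present in the B220lo library, with fewer contigs per end. There 99 ends had 5 or more V genes, and they held 810 contigs, 8.26% of the heavy chains. In the deleted library 7 ends had 5 or more V genes, 6 with IGHJ2 and 1 with IGHJ3, and they held 2301 contigs, or 67.8%. With 6 and 12 bases before the J match, ends with 5 or more V genes held 70.3% and 36.2% of contigs in the deleted library and 19.9% and 5.32% in the B220lo library. The end with the most V genes in the B220lo library used IGHJ1 and matches all 22 bases of its CDR3 part, shown in capitals. The first 4 of these also continue a 13-base match to Ighd1-1, so they can come from either segment. All bases of this end are thus found in Ighd1-1 or IGHJ1. The most frequent end of the deleted library has 3 bases between its D and J matches. Whether cells with the same end share 1 D-J joining was not tested in either library.
B220lo, 59 contigs and 31 V genes: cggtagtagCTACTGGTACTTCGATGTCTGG
Of the distinct ends, 15.6% in the deleted and 14.1% in the B220lo library were found with more than 1 V gene. This share depended on the definition: with 6 bases before the J match it was 20.2% in the deleted and 26.3% in the B220lo library, and with 12 bases 14.3% and 8.80%.

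**Figure D3:**
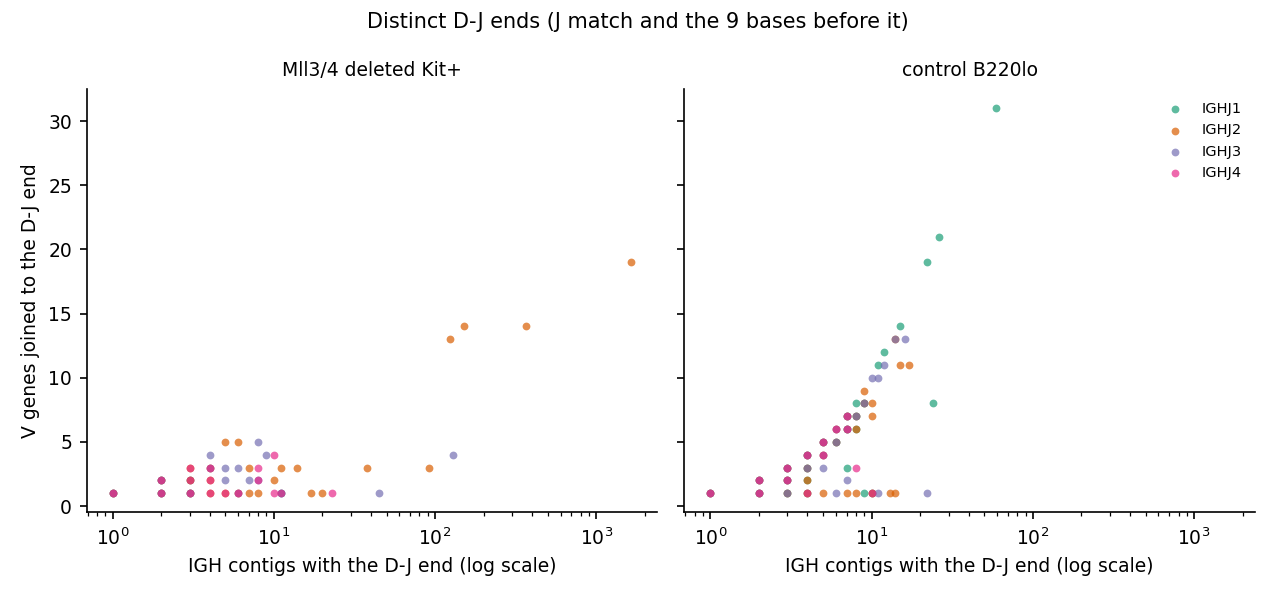
Each point is a D-J end, or several with the same values, of the deleted Kit+ (left) or control B220lo library (right): IGH contigs with that end (horizontal, log scale) against the number of V genes joined to it (vertical), coloured by J segment. In the deleted library 4 IGHJ2 ends with 13 to 19 V genes have 124 to 1641 contigs, and 1 IGHJ3 end with 4 V genes has 129, while no end of the B220lo library has more than 59.

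Clones differed by J segment in the deleted library. A clone is here the cells of 1 library with the same heavy-chain CDR3 and J. Clones of 10 or more cells numbered 35 in the deleted library and held 73.6% of its contigs: 28 used IGHJ2, 3 IGHJ3, 3 IGHJ4 and 1 IGHJ1. Of its 479 heavy chains found in a single cell, 44.7% used IGHJ2 (40.2 to 49.3%), 23.4% IGHJ3, 23.0% IGHJ4 and 8.98% IGHJ1 (6.57 to 11.9%). Of the 28 IGHJ2 clones, 24 carried one of the 4 ends above, and whether clones with the same end arose independently was not tested. Outside these ends 4 clones of that size used IGHJ2, 3 IGHJ3, 3 IGHJ4 and 1 IGHJ1. Of these IGHJ2 clones, that of 36 cells with IGHV5-15 has an end that differs from end 4 in its first base alone. The largest IGHJ3 clone had 125 cells, the largest IGHJ4 clone 23 and the largest IGHJ1 clone 11. Of the 10 largest clones, 9 used IGHJ2, and 7 of these had the shared end. The tenth, in 125 cells with IGHV5-15, was the IGHJ3 clone and did not close with TGG: tgtgcaagacagctcaggctacgtgaG

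Single cells held 9082 heavy chains of the B220lo library, and 8 clones of 10 or more cells held 1.03% of contigs. These 8 were spread over the J segments, 2 with IGHJ1, 3 with IGHJ2, 2 with IGHJ3 and 1 with IGHJ4. They rested on medians of 1 to 3 UMIs, against 14 in the whole library, and whether free RNA carried such contigs between droplets was not tested. The 10 largest clones of the deleted library had medians of 16 to 26 UMIs. The deleted and B220lo libraries shared 35 cell barcodes with a heavy chain and a single CDR3, an IGHJ3 sequence on 1 contig in each, in different barcodes.

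V families differed in J use within the B220lo library. Among its 11 families with at least 50 distinct CDR3s, the IGHJ2 share ran from 22.9% in family 7 (17.4 to 29.3%) to 46.9% in family 14 (41.97 to 51.9%). IGHJ1 ran from 18.7% in family 1 to 38.0% in family 7 (31.4 to 45.1%), where it was the most used segment. IGHJ3 ran from 17.8% in family 4 to 32.1% in family 10. IGHJ4 ran from 13.5% in family 10 to 28.6% in family 13 (19.9 to 38.6%). Family 1, the largest, took 60.2% of the IGHJ2 CDR3s and 57.7% of the IGHJ3 CDR3s, but 48.8% of those with IGHJ1 and 49.5% of those with IGHJ4.

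Families 2 and 5 lie nearest to the D segments and families 1 and 8 farthest from them. In the B220lo library IGHJ2 had 30.01% of CDR3s with the near families (27.6 to 32.5%), 36.6% with the families between, and 41.5% with the far families (40.2 to 42.7%). IGHJ4 went the other way, with 21.02% (18.9 to 23.2%), 16.3% and 14.3% (13.4 to 15.2%). The J segments most alike in their V family profile in the B220lo library, by the percentage of one profile over 15 families that would have to move to give the other, were IGHJ1 and IGHJ4, which differed in 5.40% of the profile, and IGHJ2 and IGHJ3, with 6.10%. The pairs across these 2 groups differed in 10.1% to 13.7%. The deleted library had another order: IGHJ3 and IGHJ4 were most alike there, with 7.25%, and IGHJ1, with 48 CDR3s, and IGHJ4 least alike, with 24.4%.

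The deleted library used mostly near V genes: 500 of its 631 distinct CDR3s had a V gene of family 2 or 5, and 28 had one of family 1 or 8. Families 2 and 5 were compared with the same families of the B220lo library. In family 5, IGHJ2 was at 47.2% (41.4 to 53.2%) against 33.9%, IGHJ1 at 6.21% (3.72 to 9.63%) against 23.7%, and IGHJ4 at 23.8% (19.0 to 29.1%) against 18.5%. In family 2, IGHJ2 was at 56.7% (49.7 to 63.5%) against 24.0%, IGHJ1 at 7.62% (4.42 to 12.1%) against 23.4%, and IGHJ4 at 16.2% (11.5 to 21.9%) against 24.9% (21.3 to 28.7%). IGHJ1 was lower and IGHJ2 higher in both families, with intervals apart, while IGHJ4 was higher in family 5 and lower in family 2, with overlapping intervals in each. Without the most frequent D-J end, IGHJ2 was at 43.8% (37.8 to 49.9%) in family 5 and 52.6% (45.3 to 59.8%) in family 2. The upper limits in the B220lo library were 37.2% and 27.7%. Shares by family without all 4 large IGHJ2 ends were not computed. Over the 28 CDR3s with far V genes the IGHJ1 share was 32.1% (15.9 to 52.4%), and with near V genes it was 6.80% (4.75 to 9.37%).

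**Figure D4:**
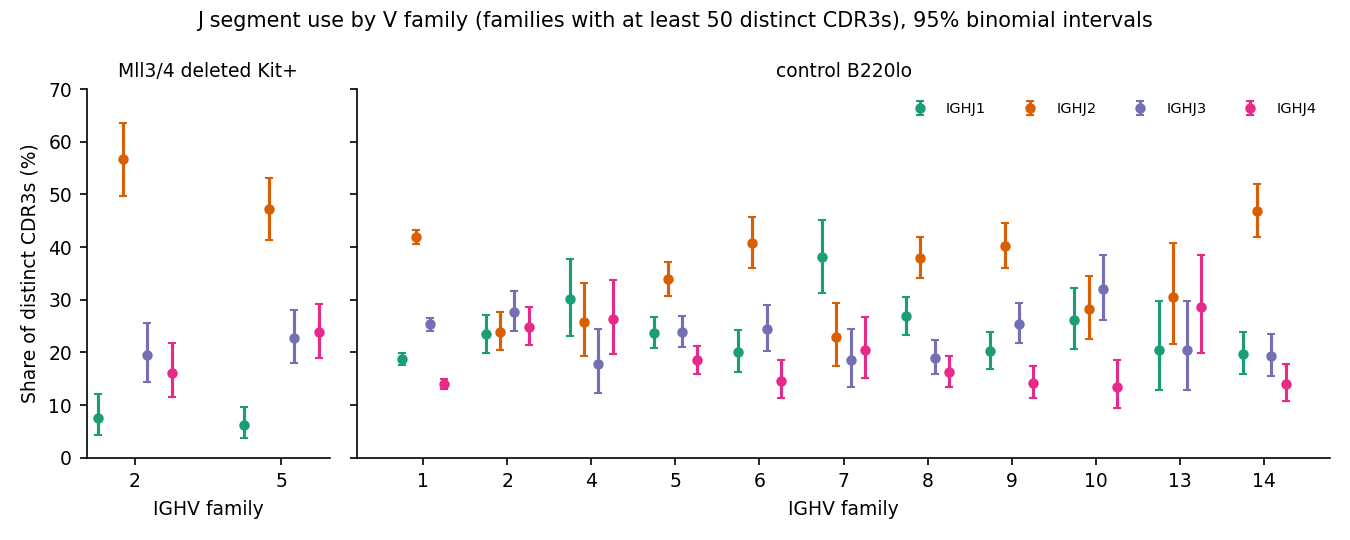
Share of distinct CDR3s with each J segment (%, vertical axis) for the V families with at least 50 distinct CDR3s in the deleted Kit+ (left) and control B220lo library (right); bars are exact 95% binomial intervals. IGHJ1 is at 7.62% and 6.21% in families 2 and 5 of the deleted library and at 23.4% and 23.7% in the same families of the B220lo library.

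Single V genes were compared by their IGHJ4 share. Of the 59 V genes with at least 50 distinct CDR3s in the B220lo library, the lowest IGHJ4 shares were those of IGHV5-9-1 (8.20%, 5 of 61 CDR3s), IGHV1-5 (8.95%, 17 of 190) and IGHV1-50 (10.8%, 14 of 130). The highest were those of IGHV2-3 (42.03%, 29 of 69), IGHV5-15 (33.3%, 17 of 51) and IGHV13-2 (28.6%, 28 of 98). They were picked for their rank, so their gap is a description. IGHV5-2 was the sole V gene of that size in the deleted library. Of its 145 CDR3s there, 63 used IGHJ2 (43.4%), 44 IGHJ4 (30.3%, 23.0 to 38.5%), 29 IGHJ3 (20.0%) and 9 IGHJ1 (6.21%, 2.88 to 11.5%). Of 58 IGHV5-2 CDR3s in the B220lo library, 13 used IGHJ2 (22.4%), 7 IGHJ4 (12.1%, 4.99 to 23.3%), 20 IGHJ3 (34.5%) and 18 IGHJ1 (31.0%, 19.5 to 44.5%). Within this V gene the IGHJ1 intervals were apart and the IGHJ4 intervals just overlapped.

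A D gene was assigned to 20.7% of heavy-chain contigs in the B220lo library and to 44.1% in the deleted library. Of the 1498 contigs with a D gene in the deleted library, 969 had the shared D-J end. By distinct CDR3, taking the first contig of each, the libraries lay closer together. No D gene was assigned to 491 of 631 in the deleted and 7417 of 9367 in the B220lo library. Assignment needs enough D bases to be left, so contigs with a D gene are not a random part of the contigs. At least 50 distinct CDR3s were assigned to each of 8 D genes in the B220lo library. IGHD4-1, which lies closest to the J cluster, had the lowest IGHJ4 share among them, 22 of 465 CDR3s or 4.73% (2.99 to 7.08%), and IGHD2-8 the highest, 33 of 118 or 28.0% (20.1 to 37.0%). IGHD3-2 had the lowest IGHJ1 share, 8 of 175 CDR3s or 4.57% (1.99 to 8.81%), and IGHD1-1 the highest, 190 of 559 or 34.0% (30.1 to 38.1%). IGHD3-2 used IGHJ2 and IGHJ3 alike, with 73 CDR3s each. No D gene reached 50 distinct CDR3s in the deleted library. Its most frequent by contig, IGHD4-1, had 1050 contigs in 23 distinct CDR3s, 16 of them with IGHJ2.

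CDR3 length followed the length of the J segment in the B220lo library. The median over distinct CDR3s was 45 bases with IGHJ1 and IGHJ4 and 39 bases with IGHJ2 and IGHJ3. In the deleted library the medians were 45 bases with IGHJ1, 36 with IGHJ2, 42 with IGHJ3 and 48 with IGHJ4. The J-matching bases had medians of 20, 13, 14 and 19 in the B220lo library, for IGHJ1 to IGHJ4, and of 19, 13, 14 and 20 in the deleted library. The rest of the CDR3 had a median of 25 or 26 bases with each J segment of the B220lo library, and of 25.5 to 28 bases in the deleted library. The medians of the segments were thus further apart in J-matching bases than in the rest of the CDR3.

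Short IGHJ2 matches were more frequent in the CDR3s of the deleted library, while the median match was 13 bases in both libraries. A J-matching base can also come from the D segment or be added. Of its distinct IGHJ2 CDR3s, 33.6% had 8 or fewer J-matching bases, against 12.8% in the B220lo library, and 9.77% matched all 17, against 24.2%. End 2 and end 3 account for part of the short matches: without them 21.2% of IGHJ2 CDR3s (16.4 to 26.7%) had 8 or fewer bases. Without all 4 ends 29.1% did (22.7 to 36.1%), and 15.9% matched all 17 bases. IGHJ3 CDR3s with 8 or fewer bases were 14.5% and 5.35%. For IGHJ1 and IGHJ4 these shares were between 1.76% and 4.17% in both libraries. Of the distinct CDR3s, 37 of 631 (5.86%) in the deleted library did not close with TGG, 26 with IGHJ2, 10 with IGHJ3 and 1 with IGHJ4, against 32 of 9367 (0.342%) in the B220lo library. End 3 supplied 19 of the 37, and without it 18 of 612 (2.94%) did not close with TGG.

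J use differed over the range of CDR3 lengths in both libraries. IGHJ2 went, in the B220lo library, from 58.1% of CDR3s of 30 or fewer bases to 20.995% of those of 51 or more, and IGHJ1 went from 5.75% to 37.9% (35.4 to 40.4%). Long CDR3s of the deleted library most often used IGHJ4. Among its 112 CDR3s of 51 or more bases, 54 used IGHJ4 (48.2%, 38.7 to 57.9%) and 15 IGHJ1 (13.4%, 7.69 to 21.1%), while IGHJ4 had 29.8% (27.5 to 32.2%) of such CDR3s in the B220lo library. At 30 or fewer bases the IGHJ2 shares were 57.8% (46.5 to 68.6%) in the deleted and 58.1% in the B220lo library. The gap in IGHJ2 was largest at 33 to 39 bases, the range that holds the median of the shared end, with 66.1% (59.7 to 72.1%) against 46.6% (44.9 to 48.4%), and with 60.5% once that end was left out.

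**Figure D5:**
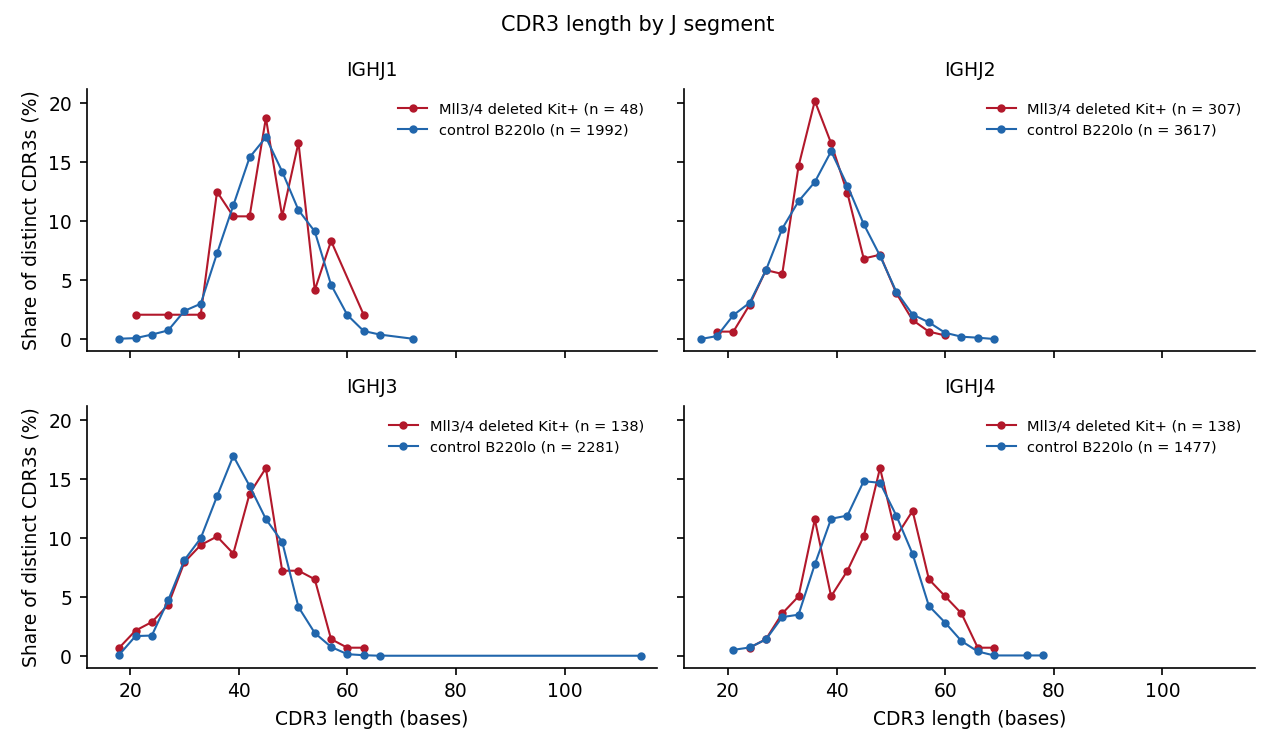
Share of the distinct CDR3s of each J segment (%, vertical axis) at each CDR3 length in bases (horizontal axis), for the deleted Kit+ and control B220lo libraries; n is the number of distinct CDR3s. Medians are 45 and 45 bases with IGHJ1, 36 and 39 with IGHJ2, 42 and 39 with IGHJ3, and 48 and 45 with IGHJ4.

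A heavy chain was accompanied by a light chain (kappa or lambda) in few cells of the deleted library. Of its 3392 barcodes with a heavy chain, 99.4% had no light chain contig and 21 had one. In the B220lo library 19.8% of 9104 barcodes had a heavy chain only, 64.0% had kappa, 13.3% lambda and 2.87% both. Heavy chains rested on medians of 15 UMIs in the heavy-only cells and 14 UMIs in the others of the B220lo library.

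J shares in both states of the B220lo library lay close together. Heavy-only contigs were 21.9% IGHJ1, 37.8% IGHJ2 (35.6 to 40.1%), 25.1% IGHJ3 and 15.2% IGHJ4. Contigs with a light chain were 21.2% IGHJ1, 38.8% IGHJ2 (37.8 to 39.9%), 24.3% IGHJ3 and 15.7% IGHJ4. Each pair of intervals overlapped. By light chain, IGHJ2 was at 38.5% with kappa (37.3 to 39.7%), 38.6% with lambda (36.0 to 41.3%) and 46.6% with both (41.1 to 52.2%, 324 contigs). The last interval lay apart from those of heavy-only and kappa cells. Between the libraries, heavy-only cells differed in IGHJ1, with 21.8% of distinct CDR3s (19.9 to 23.8%) in the B220lo library against 6.81% (4.95 to 9.09%) in heavy-only cells of the deleted library. The IGHJ4 shares of the same CDR3s were 15.3% (13.6 to 17.01%) and 22.4% (19.1 to 25.9%).

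The few heavy chains with a light chain in the deleted library included 6 of the 65 with IGHJ1, so that 90.8% of IGHJ1 barcodes (81.0 to 96.5%) were heavy only, against 99.6% for IGHJ2, 99.2% for IGHJ3 (97.6 to 99.8%) and 99.6% for IGHJ4. The 22 contigs with a light chain were 6 IGHJ1, 12 IGHJ2, 3 IGHJ3 and 1 IGHJ4. Cells with both chains had Ms4a1 at 346 CPM, against 0.136 CPM in the heavy-only cells, and had Kit at 367 against 378 CPM. Whether these are cells of another stage or droplets of mixed content was not tested. With the light chain taken only from contigs of 3 or more UMIs, IGHJ2 was at 28.6% of contigs with a light chain, against 54.5%.

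The constant region was that of IgM (IGHM) for all IGHJ1, IGHJ3 and IGHJ4 contigs and 2727 of 2730 IGHJ2 contigs in the deleted library. IGHM was, in the B220lo library, on 92.5% to 94.9% of the contigs of each J segment and IGHA, of IgA, on 2.62% to 3.66%. Among the 302 IGHA contigs the J shares were 24.2% IGHJ1, 33.4% IGHJ2 (28.1 to 39.1%), 29.1% IGHJ3 and 13.2% IGHJ4. Among the 42 IGHG2B contigs, 29 used IGHJ2 (69.0%, 52.9 to 82.4%). These counts are by contig, so cells of a clone count repeatedly. Distinct CDR3s were not counted by constant region.

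Transcripts assigned to the J genes in the gene count matrix gave a separate readout of the same cells. In the B220lo library Ighj1 was at 21.7 CPM in cells whose contig used IGHJ1 and at 0.595 to 1.77 CPM in cells with another J or none. Ighj2 was at 14.9 CPM in IGHJ2 cells and 1.29 to 2.16 CPM elsewhere, Ighj3 at 21.9 against 1.32 to 2.19 CPM, and Ighj4 at 31.9 against 4.06 to 6.81 CPM. Each gene was thus highest in the cells of this library whose contig named it. Counts were low in the deleted library, and this pattern was not seen for every gene. Ighj2 had 23 UMIs in IGHJ2 cells (0.978 CPM) and 0 in cells with IGHJ1, IGHJ3 or IGHJ4, where the upper limits of the intervals, 5.56, 1.13 and 1.75 CPM, lie above that level. Ighj4 was at 3.80 CPM (1.64 to 7.48) in IGHJ4 cells, 6.13 CPM (3.75 to 9.47) in IGHJ3 cells and 2.85 CPM (2.21 to 3.62) in IGHJ2 cells. Ighj4 was at 3.05 CPM (2.72 to 3.41) in the 11699 barcodes of the deleted library without a heavy-chain contig, against 0.0489 CPM (0.0211 to 0.0964) in those of the control Kit+ library. These barcodes also differed in cell content. In the same order, B-lineage markers were at 12770 and 119 CPM, and granulocyte and monocyte markers at 4519 and 15541 CPM. The part of cell content in the Ighj4 gap was not tested.

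Genes of V(D)J recombination were compared in the cells with a heavy chain, as CPM ratios with 1 CPM added. Of the 22 genes of the list, 4 were at least 2-fold higher in the deleted library and 4 at least 2-fold lower. Over all 12097 genes 13.1% were that much higher and 14.2% that much lower, and the median log2 ratio was -0.05 for the list and -0.02 for all genes. Of the recombinase genes, Rag2 was at 165 against 52.3 CPM and Rag1 at 208 against 110 CPM, a ratio of 1.88 for Rag1, under the 2-fold mark. Dntt, whose product adds bases to the junction, was at 1311 against 47.4 CPM, 27.1-fold higher. The gap-filling polymerase genes went opposite ways. Polm was at 1.83 against 113 CPM, 54 against 5244 UMIs, and Poll at 10.6 against 3.98 CPM. Dclre1c, coding for the nuclease Artemis, was at 16.1 against 56.4 CPM, Xrcc6, coding for a Ku subunit, at 103 against 240 CPM (the other subunit gene, Xrcc5, was at 34.8 against 18.4 CPM, a ratio of 1.85), and Lig4, coding for the joining ligase, at 20.8 against 46.0 CPM. Trp53bp1, a gene of the DNA break response, was at 51.8 against 25.1 CPM. With 10 CPM added in place of 1, Poll, Trp53bp1 and Lig4 no longer reached 2-fold, with ratios of 1.47, 1.76 and 0.55. Xrcc4 (46.1 and 47.9 CPM), Prkdc (38.9 and 40.2 CPM), and the factors Yy1 (103 and 92.4 CPM) and Ctcf (202 and 220 CPM) had ratios between 0.916 and 1.12. The remaining genes of the list had ratios of 0.528 (Ikzf1), 0.575 (Nhej1), 0.661 (Pax5), 0.670 (Paxx), 0.809 (Ebf1), 1.06 (Hmgb2), 1.07 (Atm) and 1.13 (Hmgb1).

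The framework 4 stretch after the CDR3 was identical to the germline J in 98.9% to 100% of the contigs of each J segment in the deleted library. These bases lie outside the CDR3 and so also mark the J segment of CDR3s that keep few J bases.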

How the data were processed

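Heavy-chain contigs and gene counts of 4 libraries, 1 per group, were used. Contigs and UMI counts per gene were made by the authors with Cell Ranger 7.1.0 on mm10, per the submitters' processing notes, and deposited as filtered tables. Settings of the assembly are not given in the sources used here. The members and gene lists were chosen with earlier results of these data known.

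From the deposited contig tables, IGH rows were grouped by J gene and counted by contig, by distinct CDR3 nucleotide sequence with its J, and by D-J end (Python 3.11.15, pandas 2.3.3, scipy 1.17.1). The J match was tested on simulated data. Germline J and D sequences came from GENCODE M21. Each contig is an assembly of UMIs, 1 to 152 of them in the deleted and 1 to 10225 in the B220lo library, so a rearrangement with little RNA can be missed. No barcode was removed and no doublet caller was run; 706 barcodes of the B220lo library and 1 of the deleted library had 2 heavy chains. Gene counts were summed over the barcodes with a heavy chain and scaled to CPM, and genes with at least 100 UMIs in the higher library were compared. The libraries held 12205 to 16861 barcodes and 85445426 to 166327773 UMIs.

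Named were the 4 J segments, V families, V genes and D genes with at least 50 distinct CDR3s in a library (of V genes the 3 with the highest and the 3 with the lowest IGHJ4 share), the J pairs most alike in V family profile, the 10 largest clones and the recombination genes past 2-fold, and others of that list for contrast. Alternatives were filters on contig UMIs, barcodes and clones, shared CDR3s or barcodes left out, other ways of counting, and for genes another scale, filter and pseudocount (10 CPM).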

Additional observations from a re-analysis of the deposited data

Results flagged for a closer look

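All 3 IGHJ1 contigs of the Mll3/4SI Kit+ library differed by A4G from the mm10 germline IGHJ1 (positions counted from 1 at the first base after the CDR3). The framework 4 bases of this library are not used in the comparisons above. Germline and contig framework 4 are shown with that base in capitals. The labels do not give the mouse strains, so an allele of another strain and a change in these cells cannot be told apart.
Germline IGHJ1: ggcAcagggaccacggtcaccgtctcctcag
Mll3/4SI contigs: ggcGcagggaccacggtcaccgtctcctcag
The contigs had 3 distinct CDR3s. The same base was on 0 of 8 IGHJ1 contigs of the control Kit+ library, on 0 of 65 of the deleted library, where 3 contigs would be 37.5% and 4.62% and the exact 95% upper limits are 36.9% and 5.52%, and on 1 of 2088 of the B220lo library.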

How the results depend on the processing

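No paired analysis was possible because each group is 1 library. An alternative was taken to move a share or median when it left the 95% interval of the reported value. Counts of genes or contigs were judged by a fixed fold limit instead. The cause of a move was not tested unless stated. Of the alternatives listed in the methods 143 did not move a value and 13 did. Of those added after seeing the data 38 did and 24 did not. Some had little or no room to move a value. The shared D-J end was already absent from the B220lo library, and leaving out CDR3s of both libraries removed 1 contig from each. In the deleted library, leaving out clones of 10 or more cells moved the shares by contig to 6.03% IGHJ1, 52.3% IGHJ2, 20.4% IGHJ3 and 21.2% IGHJ4; leaving out the shared D-J end moved them to 3.71%, 62.2%, 20.8% and 13.4%, and IGHJ2 by distinct CDR3 to 44.6%. Leaving out the 4 IGHJ2 ends described above moved the shares by contig to 5.85%, 40.3%, 32.8% and 21.1%. By distinct CDR3 it moved them to 36.8% IGHJ2 and 26.9% each for IGHJ3 and IGHJ4. An IGHJ3 end with 129 contigs, more than the 124 of end 4, was kept. Weighting by UMIs gave 2.55% IGHJ1 there, and 20.1% IGHJ1, 22.9% IGHJ3 and 17.4% IGHJ4 in the B220lo library. Counting D-J ends once moved the deleted library's shares by distinct CDR3 to 10.7% IGHJ1, 36.3% IGHJ2 and 28.0% IGHJ4 with 9 bases before the J match, to 11.4%, 34.6% and 28.3% with 25.8% IGHJ3 with 6 bases, and to 42.8% IGHJ2 and 25.3% IGHJ4 with 12 bases. In the B220lo library it gave 19.8% IGHJ1 and 39.8% IGHJ2 with 9 bases, 23.3% IGHJ3 and 18.0% IGHJ4 with 6, and 20.2% IGHJ1 and 39.8% IGHJ2 with 12. The shared end, defined with 12 bases, held 829 contigs in place of 1641. Light chain contigs of 3 or more UMIs gave 28.6% IGHJ2 with a light chain in the deleted library. By contig, where clones count repeatedly, the median CDR3 with IGHJ3 there was 36 bases. The largest IGHJ3 clone, of 125 cells, has a CDR3 of 27 bases, and the median without it was not computed. With a pseudocount of 10 CPM, 2 recombination genes were 2-fold higher and 3 lower, in place of 4 and 4, and of all genes 712 were higher and 895 lower, in place of 1582 and 1713. On a median-of-ratios scale 3 recombination genes were 2-fold higher, with Trp53bp1 just under the mark. The small number of heavy chains in the other 2 Kit+ libraries, 34 and 25, limits every share from them.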
